A study of Homo sapiens with 8 samples.

Results

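The response of SW620 cells to Y15, a compound that inhibits the focal adhesion kinase FAK, was described by setting the 2 arrays of Y15-treated cells against the 2 arrays of untreated cells, 4 of the 8 arrays of the series. SW620 is an established human line from a colorectal cancer metastasis. One group was kept with 4 uM Y15 for 24 h and the other was kept for 24 h with no treatment; the labels name no vehicle for it. The other 4 arrays, SW620 cells given an siRNA against HAS3 or a scrambled sequence, entered the fit only through the spread between replicates. Before the fit they also took part in the normalization, the detection filter and the choice of probe for each gene. Total RNA was measured on single-colour Illumina bead arrays, 1 array per sample. Genes were described if a named probe was detected (p-value under 0.05 in the deposited table) on 2 or more of the 8 arrays. This gave 10856 genes from 24526 probes. The labels do not say whether replicate arrays are separate cultures, and the p-values rest on a spread between arrays that may be purely technical.

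FAK, encoded by PTK2, is a cytoplasmic tyrosine kinase that gathers at focal adhesions when integrins bind the extracellular matrix. It phosphorylates itself, recruits SRC and passes signals through paxillin, p130Cas and GRB2 to the ERK cascade and PI3-kinase, and so links adhesion to migration, growth and survival. Y15 is known as an inhibitor directed at the autophosphorylation of FAK. An inhibitor of this kind acts on the protein, so the array measures what follows in the transcripts and not FAK activity itself.

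The second Y15 array was dim. Its mean probe intensity as deposited was 234.1, against 452.9 on the first Y15 array and 524.7 and 489.1 on the untreated arrays. Detected probes numbered 13693 and 12866 on the Y15 arrays and 13872 and 13386 on the untreated arrays. Over the 11506 probes detected on all 8 arrays, the second Y15 array had a median of 0.495 times the intensity of the first, while the second untreated array had 0.905 times that of the first. Values below are therefore normalized log2 intensities (background-corrected and quantile-normalized), given for array 1 and then array 2 of each group. After normalization the arrays of a group correlated across genes, which are not replicates, at r = 0.9899 for Y15 and r = 0.9930 for untreated cells. The median gap between arrays of a group was 0.184 for Y15 and 0.167 for untreated cells on the log2 scale. Precision is limited throughout by the number of arrays.

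**Figure D1:**
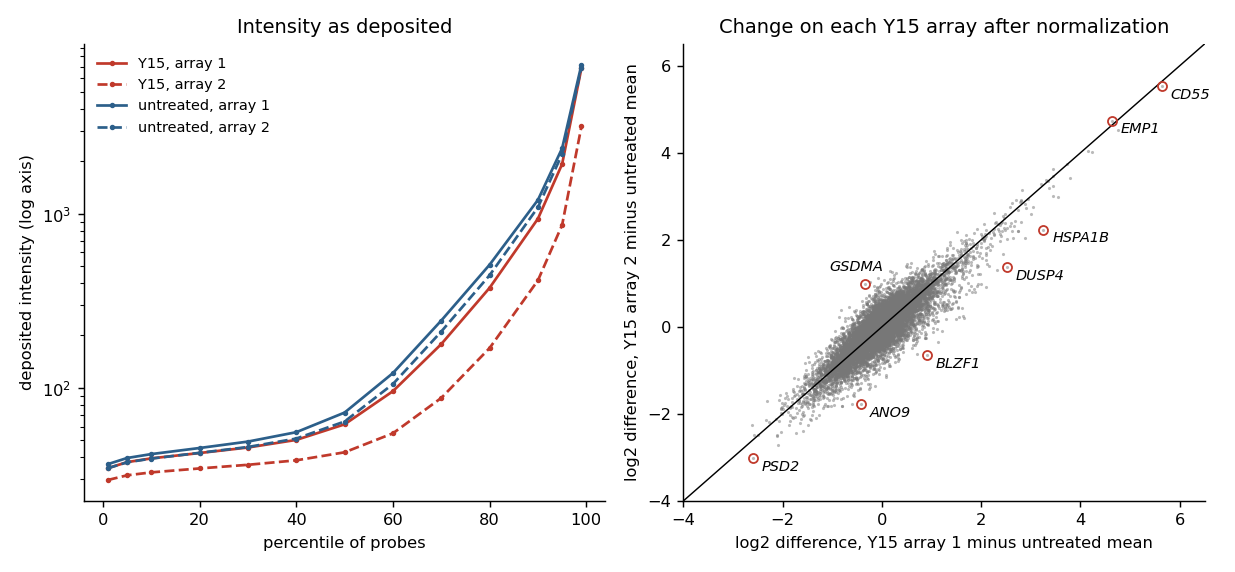
Left, deposited intensity on a log axis at percentiles of the 24526 probes, for the 2 Y15 arrays in red and the 2 untreated arrays in blue (array 2 dashed). Right, each point is 1 of 10856 genes, with its normalized log2 difference from the untreated mean on Y15 array 1 (x axis) and on Y15 array 2 (y axis); the line marks equal values. The dim array runs below the other 3 over the percentiles drawn, and CD55 and EMP1 lie near the line while HSPA1B and DUSP4 lie further from 0 on array 1.

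The dim array bears on which way a gene can be read without normalization. Of the 2040 genes called higher, 1723 had a deposited intensity above both untreated arrays on the first Y15 array and 145 had one on the second. Among the 83 genes called at least 4-fold higher, 82 stood above both untreated arrays on the dim array even as deposited. These 83 were chosen by a mean that includes the dim array, so this count is not a separate check. In the other direction, 97.6% of all genes tested read below both untreated arrays on the dim array, against 64.4% on the first Y15 array, so a low deposited reading there marks no gene out.

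A large part of the measured transcriptome differed between Y15-treated and untreated cells. At a Benjamini-Hochberg adjusted p under 0.05 in limma over all 10856 genes, 4538 genes were called (41.8%), of which 2040 were higher (18.8%) and 2498 lower (23.0%) than in untreated cells. The median log2 fold change of all genes was -0.03, and the 5th and 95th percentiles were -1.02 and 0.95. At least 2-fold, 487 called genes were higher and 575 lower. From 4-fold up the balance was the other way: 83 called genes were at least 4-fold higher and 18 at least 4-fold lower, and at least 8-fold the counts were 16 and 0. The split between higher and lower calls follows the scaling of the arrays. Centring arrays on the median of all probes gave 501 higher and 3429 lower, with the median of all genes at -0.31. Centring on the 11506 probes detected on all 8 arrays, an alternative chosen after seeing the data, gave 2859 higher and 1548 lower, with the median at 0.22. Changes of single genes below are therefore read against a median near 0 under quantile normalization. Counts of called list members below are read beside the shares of all genes, 18.8% higher and 23.0% lower.

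**Figure D2:**
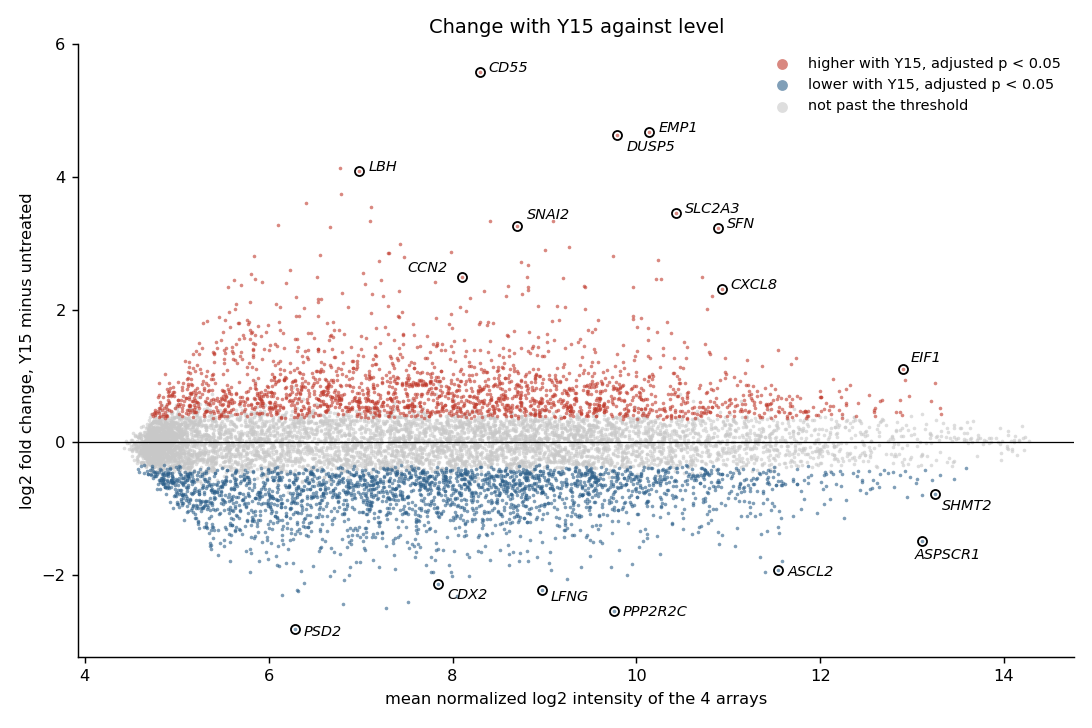
Each point is 1 of 10856 genes, with its mean normalized log2 intensity over the 4 arrays on the x axis and the log2 fold change of Y15 over untreated on the y axis. Red points were called higher (2040), blue points lower (2498), and grey points did not pass limma adjusted p 0.05; the tail of large changes reaches 5.58 upward and -2.81 downward.

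Called genes were found at every level of signal, but least often at its ends. Between a mean log2 intensity of 6 and 8, 50.6% of 3116 genes were called, and at 12 and over 25.9% of 336 genes. Below 6, 28.1% of 3110 genes were called, and there the median gap between the Y15 arrays was 0.231, against 0.153 between the untreated arrays.

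The largest rise was that of CD55, which encodes decay-accelerating factor, a surface protein that breaks up complement convertases. CD55 read 11.14 and 11.04 on the Y15 arrays, against 5.33 and 5.67 on the untreated arrays. Both Y15 arrays lay far above both untreated arrays, and as deposited CD55 stood at 2494 and 1054 on the Y15 arrays and 83.3 and 87.0 on the untreated arrays. The change was 48.0-fold (log2 fold change 5.58 ± 0.16 SE, limma adjusted p = 1.8e-09). EMP1, a tetraspan membrane protein, read 12.43 and 12.54 with Y15, against 7.70 and 7.90 in untreated cells. It was 25.6-fold higher, and the dim array was the higher of the 2 Y15 arrays. LBH, a transcriptional cofactor, read 9.09 and 8.98 with Y15, against 4.94 and 4.94 in untreated cells (17.1-fold, adjusted p = 6.13e-09), and a second LBH probe also passed, 1.64 higher on the log2 scale. PIM1, a serine/threonine kinase that promotes survival, read 8.65 on each Y15 array, against 4.99 and 4.84 in untreated cells (13.3-fold). FGFBP1, which releases fibroblast growth factors from the matrix, read 8.76 and 8.77 with Y15, against 5.28 and 5.58 in untreated cells (10.1-fold). ETS1, a transcription factor of the ETS family, read 10.75 and 10.73, against 7.63 and 7.97 (7.69-fold). In each of these genes the groups were separate by several times the gap within a group. Leaving out any 1 of the 4 arrays left the log2 fold change of CD55 between 5.41 and 5.75 and that of EMP1 between 4.58 and 4.78.

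The largest fall was that of PSD2, a guanine nucleotide exchange factor for the ARF6 GTPase. PSD2 read 5.08 and 4.67 on the Y15 arrays, where only 1 array detected it, against 7.57 and 7.81 on the untreated arrays (7.03-fold lower, adjusted p = 5.41e-07). With the detected Y15 array alone its log2 fold change was -2.61. PPP2R2C, a regulatory subunit of protein phosphatase 2A, read 8.44 and 8.53 with Y15, against 11.04 and 11 in untreated cells (5.81-fold lower), and its second probe fell by 2.85 on the log2 scale. C5, the complement component, read 6.03 and 6.04, against 8.27 and 8.77 (5.62-fold lower), so that a complement component was lower in the cells in which the complement inhibitor CD55 was higher. KISS1R, the receptor of kisspeptin, read 5.10 and 5.29 with Y15, against 7.5 and 7.37 in untreated cells (4.72-fold lower, adjusted p = 4.12e-07). Its ligand KISS1 was detected on both untreated arrays, at 6.01 and 6.11, and on neither Y15 array, and was at least 2.31-fold lower (adjusted p = 1.44e-05). The groups overlapped for none of these genes, as for 67.8% of all genes tested (36.7% with both Y15 arrays below both untreated arrays and 31.1% with both above).

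**Figure D3:**
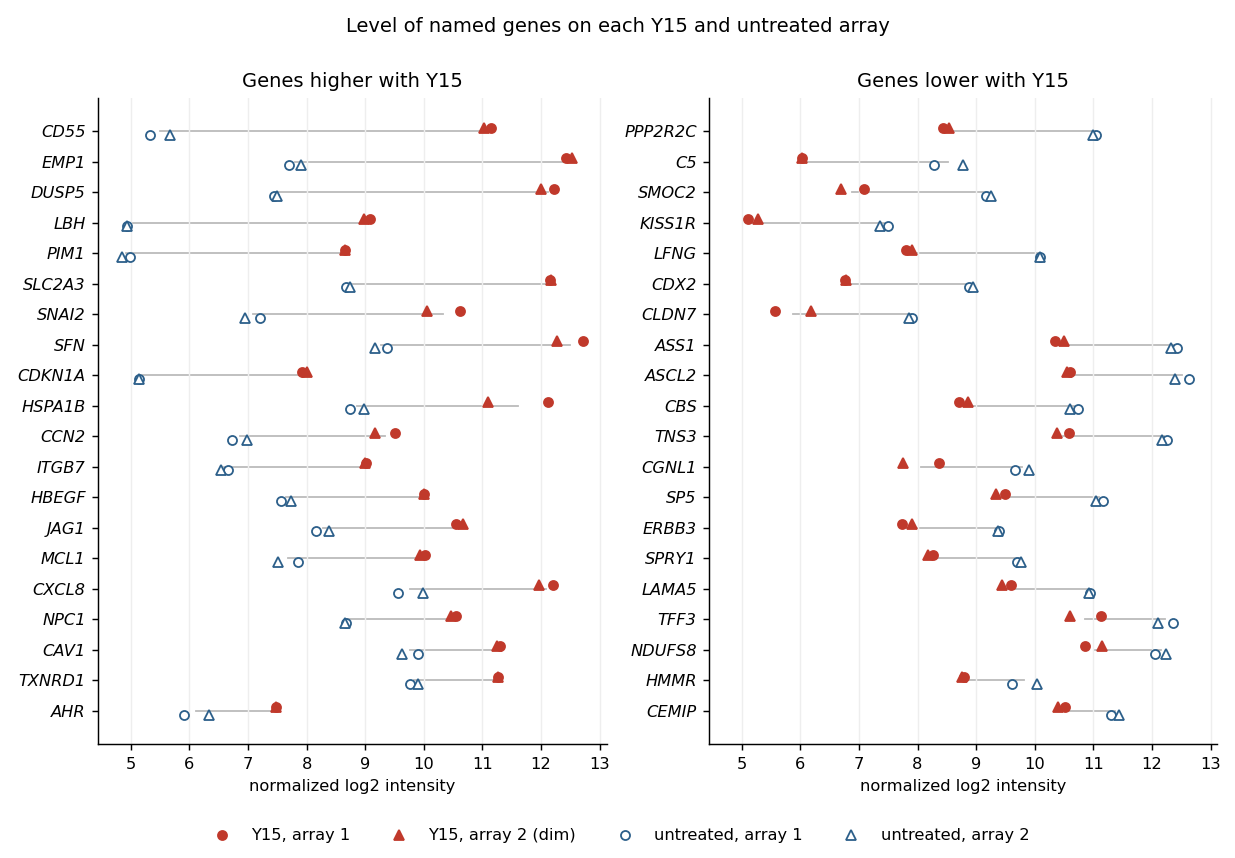
Normalized log2 intensity (x axis) of 20 genes higher and 20 genes lower with Y15, 1 row per gene. Filled red symbols are the 2 Y15 arrays and open blue symbols the 2 untreated arrays (circle array 1, triangle array 2). A grey line joins the group means. In each row drawn the red pair and the blue pair do not overlap, as for 67.8% of all genes tested. HSPA1B and CGNL1 show wide gaps between their Y15 arrays.

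The transcript of FAK did not pass the test by the brighter of its probes. PTK2 read 10.25 and 10.43 on the Y15 arrays, against 10.31 and 10.58 on the untreated arrays, and the groups overlapped (log2 fold change -0.11 ± 0.14 SE, 95% interval -0.42 to 0.21, adjusted p = 0.586). A second, much dimmer PTK2 probe passed the threshold 0.55 higher on the log2 scale. Among 31 genes of FAK and its signalling partners, 10 were called higher and 6 lower, with a median log2 fold change of -0.05 beside -0.03 for all genes. This count is 16 of 31 beside 41.8% of all genes. TNS3, a tensin that ties integrin tails to actin, read 10.58 and 10.37 with Y15, against 12.25 and 12.17 in untreated cells (3.33-fold lower, adjusted p = 3.16e-06). CAV1 and CAV2 encode the coat proteins of caveolae. CAV1 read 11.30 and 11.26, against 9.90 and 9.62 (2.86-fold higher). CAV2 read 9.74 and 9.84, against 8.21 and 8.34 (2.86-fold higher), while a second, dim CAV2 probe had a log2 difference of -0.24 that did not pass. ASAP1, an ARF GTPase-activating protein that binds FAK, was 2.45-fold higher, and FERMT2, which encodes the integrin activator kindlin-2, 2.1-fold higher, a call lost under centring on all probes. GRB7, an adaptor that binds FAK, was 2.11-fold lower, and DOCK1, the Rac activator downstream of p130Cas, 1.8-fold lower. PXN, paxillin, read 6.10 and 6.99 with Y15, against 5.59 and 5.45 in untreated cells; its log2 fold change was 1.03, and 0.58 without the second Y15 array (adjusted p = 0.0137).

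Some calls among these partners hung on single arrays. SRC, BCAR1 (p130Cas), the FAK paralogue PTK2B and the actin linker VCL had adjusted p-values of 0.116, 0.961, 0.386 and 0.581. SRC passed without the first untreated array (0.0399) and PTK2B without the first Y15 array (0.00971). Without the second untreated array the calls were 6 higher and 4 lower, and those of GRB2 (adjusted p = 0.0549), LIMS1 (0.0857), ILK (0.199), NEDD9 (0.141), FERMT1 (0.111) and GIT2 (0.0507) were lost. Without the second Y15 array those of NEDD9 (0.168), FERMT1 (0.172), RB1CC1 (0.14) and GIT2 (0.0567) were lost. Without the first untreated array those of TLN1 (0.0526), FERMT1 (0.0504), RB1CC1 (0.204) and GIT2 (0.188) were lost, and without the first Y15 array those of ILK (0.131) and GIT2 (0.0886). Under centring on all probes the balance turned to 4 higher and 8 lower.

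Integrins and the matrix they bind changed unevenly. Of 12 integrin subunits, 2 were called higher (16.7%) and 1 lower (8.3%), beside 18.8% and 23.0% of all genes. ITGB7, the beta subunit of mucosal lymphocyte integrins, read 9.02 and 9.0 with Y15, against 6.66 and 6.54 in untreated cells (5.33-fold higher, adjusted p = 4.43e-07). ITGB4, the hemidesmosome subunit that binds laminin, read 9.32 and 8.97, against 10.75 and 9.92 (2.27-fold lower), and the untreated arrays themselves were far apart; without the first its log2 fold change was -0.77 in place of -1.18 (adjusted p = 0.0111). Its partner ITGA6 was 1.75-fold higher, but its second probe had a log2 difference of -0.34 that did not pass and the mean of its probes lost the call. The count higher was 4 without the first Y15 array and 3 without the second. Of 11 laminin and basement membrane genes, 3 were higher and 3 lower, against 1 and 5 under centring on all probes. LAMB3, a chain of epithelial laminin, read 10.99 and 10.77 with Y15, against 9.25 and 9.03 in untreated cells (3.33-fold higher). LAMA5 read 9.60 and 9.45, against 10.94 and 10.92 (2.66-fold lower). COL4A2, a collagen of the basement membrane, read 6.12 and 5.98, against 8.08 and 7.62 (3.48-fold lower), and LAMB2 was 2.15-fold lower. Without the second Y15 array or the first untreated array the higher calls among these genes were 1, that of LAMB3.

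The cytoskeleton genes followed no common direction, and their balance turned with the scaling: of 42 tubulins, actins and actin regulators 11 were higher and 8 lower, against 4 higher and 9 lower under centring on all probes. Without the first untreated array the lower calls were 3. TUBB6, a beta tubulin, read 9.48 and 9.06 with Y15, against 7.32 and 6.88 in untreated cells (4.51-fold higher), and its second probe rose by 2.40 on the log2 scale. TUBB2A read 8.76 and 9.07, against 5.89 and 5.98 (7.91-fold higher); its sequence is nearly that of TUBB2B, and the array's probe for TUBB2B was lower (adjusted p = 0.00716, and 0.0559 without the first untreated array), so which of these a probe reads is uncertain. TAGLN, an actin-binding protein of contractile cells, was 3.09-fold higher. ENAH, which lengthens actin filaments at the leading edge, read 5.87 and 5.57 with Y15, against 7.13 and 7.15 in untreated cells (2.67-fold lower).

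Among genes that damp ERK signalling more rose than fell, and ligands of the EGF receptor were higher. DUSP5, a nuclear phosphatase that inactivates ERK, read 12.22 and 12 on the Y15 arrays, against 7.45 and 7.5 on the untreated arrays (24.9-fold higher, adjusted p = 1.8e-09). RGS2, a brake on G protein signals, read 9.07 and 8.68, against 5.57 and 6.59 (6.96-fold higher). DUSP4 read 9.53 and 8.38 with Y15, against 7.17 and 6.85 in untreated cells (3.84-fold higher); its log2 fold change was 2.52 without the second Y15 array and 1.37 without the first, with an adjusted p of at most 0.00514 under the settings tried. SPRY1, a Sprouty inhibitor of receptor signals, went the other way, at 8.26 and 8.18, against 9.69 and 9.77 (2.84-fold lower). Of 20 feedback genes, 10 were higher and 1 lower, with a median log2 fold change of 0.50 beside -0.03 for all genes, and without the second untreated array 9 were higher and 2 lower. Among the EGF family, HBEGF read 9.99 and 10 with Y15, against 7.56 and 7.74 in untreated cells (5.09-fold higher, adjusted p = 2.64e-06). EREG, epiregulin, was detected at 6.58 and 6.52 on the Y15 arrays and on neither untreated array (at least 3.37-fold higher). The receptors moved the other way: ERBB3 read 7.74 and 7.91, against 9.39 and 9.36 (2.94-fold lower), and ERBB2 read 6.71 and 6.91, against 7.73 and 7.87 (1.99-fold lower). The call of ERBB3 was lost when its 3 probes were averaged, since the other 2 are dim and did not pass. In all, 4 of 9 members of this family were higher and 2 lower, and without the first Y15 array 4 were lower.

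Members of the urokinase system and related serpins were also higher. PLAUR, the urokinase receptor, read 8.68 and 8.77 with Y15, against 6.01 and 5.74 in untreated cells (7.23-fold higher), and a second probe rose by 2.73 on the log2 scale. Its ligand PLAU read 8.09 and 8.17, against 6.35 and 6.44 (3.33-fold higher). SERPINB5, maspin, read 7.72 and 7.81, against 5.21 and 5.35 (5.61-fold higher). In the list of the urokinase system, serpins and metalloproteases, 7 of 15 genes were higher and 0 lower by limma, and 1 was lower without the first Y15 array.

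Epithelial genes changed in both directions. Of 16 claudin and tight junction genes 6 fell and 2 rose. CLDN7 read 5.56 and 6.18 with Y15, against 7.91 and 7.85 in untreated cells (4.02-fold lower, adjusted p = 1.02e-05). CGNL1, a cytoplasmic plaque protein related to cingulin, read 8.36 and 7.75, against 9.66 and 9.90 (3.3-fold lower). CLDN3 read 5.25 and 5.31, against 6.67 and 6.58 (2.54-fold lower). MARVELD3 was 3.03-fold lower and CGN, cingulin, 2.15-fold lower, and TJP1, the scaffold ZO-1, was 1.73-fold higher, a call lost under centring on all probes. The groups of these genes did not overlap, as for 67.8% of all genes tested. Keratins and desmosomal genes had 6 of 18 higher and 5 lower; the lower count was 3 without the second Y15 array or without the first untreated array, and there were 2 higher and 6 lower under centring on all probes. KRT16, a keratin of stressed epidermis with close paralogues and pseudogenes that may share its probe, read 7.72 and 7.35, against 4.93 and 4.94 (6.07-fold higher). KRT15 was 3.24-fold higher and KRT23 2.66-fold lower. Of 12 cadherins and mesenchymal genes 5 were higher and 1 lower, which was 6 and 2 without the first Y15 array and 3 and 1 without the second untreated array. SNAI2, a repressor of E-cadherin, read 10.62 and 10.05, against 7.21 and 6.94 (9.57-fold higher), and VIM, vimentin, read 12.39 and 12.35, against 11.28 and 10.91 (2.42-fold higher). CDH1, E-cadherin itself, read 10.97 and 11.24 with Y15, against 10.85 and 10.73 in untreated cells, and did not pass (adjusted p = 0.0959), but did without the first Y15 array (adjusted p = 0.0383).

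Intestinal identity genes also split. In bulk RNA of this kind, fewer cells of a type and less RNA per cell cannot be told apart. CDX2, the homeobox factor that sets intestinal identity, read 6.77 and 6.79 on the Y15 arrays, against 8.88 and 8.95 on the untreated arrays (4.4-fold lower, adjusted p = 1.64e-06). TFF3, a goblet cell peptide, read 11.13 and 10.60, against 12.36 and 12.10 (2.58-fold lower). KLF5, a crypt transcription factor, read 9.14 and 9.45 with Y15, against 7.42 and 7.54 in untreated cells (3.52-fold higher). CEACAM6 was 3.46-fold higher, CA2, a carbonic anhydrase of surface colonocytes, 2.14-fold higher, and MUC13 2.06-fold higher, of which the call of MUC13 was lost under centring on all probes. Of 13 genes of this list 5 were higher and 5 lower.

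Wnt feedback genes and colon stem cell markers had the lowest median of the 50 lists. Of 21, 15 were lower and 4 higher, with a median log2 fold change of -0.89, and 14 to 15 were lower under each centring. ASCL2, the stem cell factor of the crypt, read 10.61 and 10.55 with Y15, against 12.63 and 12.39 in untreated cells (3.81-fold lower). SMOC2, a matricellular protein of crypt stem cells, read 7.08 and 6.69, against 9.16 and 9.25 (4.99-fold lower). SP5, a direct Wnt target, read 9.49 and 9.34, against 11.16 and 11.05 (3.22-fold lower). DKK1, a secreted Wnt antagonist, was an exception: it was detected at 7.03 and 6.43 on the Y15 arrays and on neither untreated array (at least 3.81-fold higher).

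Notch genes changed at the level of ligands and of the fringe enzymes that modify the receptor. JAG1 read 10.55 and 10.67 with Y15, against 8.16 and 8.39 in untreated cells (5.04-fold higher, adjusted p = 3.78e-07). JAG2 read 8.71 and 8.49, against 10.08 and 9.91 (2.63-fold lower), so these ligands of the same receptors moved in opposite directions. LFNG, lunatic fringe, read 7.80 and 7.90, against 10.09 and 10.08 (4.7-fold lower), and MFNG was 1.85-fold lower. HEY2, a target of Notch, was detected only on the Y15 arrays (at least 1.91-fold higher). Of 24 Notch genes 5 were higher (20.8%) and 10 lower (41.7%), beside 18.8% and 23.0% of all genes. These counts turned to 6 higher and 5 lower under centring on detected probes. In the BMP and TGF-beta pathway 5 of 29 genes were higher (17.2%) and 9 lower (31.0%), turning to 8 and 4 under the same centring. BMP4 read 10.05 and 10.04 with Y15, against 11.49 and 11.16 in untreated cells (2.43-fold lower), and TGFBI, a matrix protein induced by TGF-beta, read 10.36 and 10.52, against 11.71 and 11.77 (2.46-fold lower). ACVR1, a type I receptor for BMPs, was 2.09-fold higher; its call was lost under centring on all probes.

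In the BCL2 family genes for both pro-death and survival proteins rose. PMAIP1, the pro-death protein NOXA, read 10.15 and 9.95 with Y15, against 7.44 and 7.68 in untreated cells (5.62-fold higher). MCL1, the survival protein that NOXA binds, read 10.02 and 9.93, against 7.85 and 7.5 (4.92-fold higher), and its other probe was 0.87 higher on the log2 scale. BAK1, which permeabilises mitochondria, was 2.79-fold higher, and BCL2L11, the pro-death protein BIM, 2.3-fold higher. Of 19 members of the family 8 were higher and 2 lower, and without the second untreated array 7 were higher and 1 lower. Among 24 death receptor and caspase genes 5 were higher (20.8%) and 2 lower (8.3%), beside 18.8% and 23.0% of all genes. TNFRSF12A, the receptor of TWEAK, read 11.12 and 10.71, against 9.13 and 8.90 (3.74-fold higher). TRADD, the adaptor of the TNF receptor, read 7.43 and 7.29, against 9.03 and 8.5 (2.64-fold lower). Without the second untreated array this list had 3 higher and 3 lower, and under centring on all probes 2 higher and 5 lower.

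Large rises were also seen for SFN, CDKN1A and AEN. SFN, the 14-3-3 protein that holds cells in G2, read 12.72 and 12.28 with Y15, against 9.38 and 9.17 in untreated cells (9.35-fold higher). CDKN1A, the cyclin-dependent kinase inhibitor p21, read 7.93 and 8.01, against 5.15 on each untreated array (7.06-fold higher). AEN, an apoptosis-enhancing nuclease, read 11.27 and 11.01, against 8.68 and 8.90 (5.08-fold higher). The groups of these 3 genes did not overlap, as for 67.8% of all genes tested. Their gaps between groups were several times those within a group.

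Among heat shock and NRF2 antioxidant genes rises outnumbered falls. Of 28 heat shock genes 17 were higher and 0 lower by limma, with a median log2 fold change of 0.52, and without the first untreated array 11 were higher; 27 of the 28 had a log2 fold change above 0. HSPA1B, an inducible HSP70, read 12.12 and 11.09 with Y15, against 8.74 and 8.98 in untreated cells (6.69-fold higher, adjusted p = 2.85e-05). Its Y15 arrays differed from each other more than those of most genes, and without the dim array its log2 fold change was 3.25. HSPA1A and HSPA1B have almost the same transcript, so their values are not independent. BAG3, a co-chaperone of HSP70, read 10.72 and 10.18, against 7.98 and 7.95 (5.58-fold higher). Of 26 NRF2 antioxidant genes 14 were higher and 0 lower by limma, while under centring on all probes 6 were higher and 0 lower. TXNRD1, thioredoxin reductase, read 11.26 and 11.27, against 9.76 and 9.90 (2.7-fold higher). Among 17 metallothionein and zinc genes 9 were higher and 1 lower, against 2 and 2 under centring on all probes. MT1H read 7.01 and 7.16, against 5.67 and 5.73 (2.6-fold higher); metallothionein transcripts are alike and a probe may read several.

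The promoters of some of these genes hold the binding motif of the factor known for the list. Those shown were picked among called members with a match and the largest changes of their list, so they do not stand for the list. Whether the motifs bear on the changes was not tested. Sequences are the 250 bases before each gene's start from RefSeq (GRCh38.p14), in the 5′ to 3′ direction of the gene, with matches on either strand in capitals. A match is a description of letters and not a measured binding site.
HSPA1B, chr6:31827488-31827737, plus strand, with 1 heat shock element: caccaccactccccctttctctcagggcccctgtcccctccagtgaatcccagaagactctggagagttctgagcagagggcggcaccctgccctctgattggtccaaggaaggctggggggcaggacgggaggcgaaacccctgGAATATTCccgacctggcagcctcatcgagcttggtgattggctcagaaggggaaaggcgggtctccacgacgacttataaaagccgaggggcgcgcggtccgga
TXNRD1, chr12:104215529-104215778, plus strand, with 1 antioxidant response element: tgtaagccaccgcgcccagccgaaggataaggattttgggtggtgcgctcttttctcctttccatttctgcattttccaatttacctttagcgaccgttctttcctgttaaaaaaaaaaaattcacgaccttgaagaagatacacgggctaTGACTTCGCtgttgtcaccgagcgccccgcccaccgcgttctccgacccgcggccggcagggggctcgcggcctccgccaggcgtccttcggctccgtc
MT1H, chr16:56669564-56669813, plus strand, with 8 metal response elements: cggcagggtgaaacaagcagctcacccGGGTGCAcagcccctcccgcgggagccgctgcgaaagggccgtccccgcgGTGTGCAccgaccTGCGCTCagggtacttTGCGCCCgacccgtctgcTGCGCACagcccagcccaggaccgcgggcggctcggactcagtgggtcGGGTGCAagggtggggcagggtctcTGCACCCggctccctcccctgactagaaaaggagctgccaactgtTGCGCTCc
EGR1, chr5:138465229-138465478, plus strand, with 2 CArG boxes: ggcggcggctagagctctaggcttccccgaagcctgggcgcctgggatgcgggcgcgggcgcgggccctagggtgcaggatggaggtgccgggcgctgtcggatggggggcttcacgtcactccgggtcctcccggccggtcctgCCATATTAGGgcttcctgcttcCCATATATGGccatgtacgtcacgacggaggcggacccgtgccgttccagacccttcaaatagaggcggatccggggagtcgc
TNFAIP3, chr6:137867009-137867258, plus strand, with 2 kappa B sites: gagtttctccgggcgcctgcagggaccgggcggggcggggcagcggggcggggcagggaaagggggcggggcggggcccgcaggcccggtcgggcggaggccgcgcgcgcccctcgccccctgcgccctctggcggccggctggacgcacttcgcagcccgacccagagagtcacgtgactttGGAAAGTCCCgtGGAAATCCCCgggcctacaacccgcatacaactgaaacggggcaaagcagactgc
CCN2, chr6:131951373-131951622, minus strand, with 3 TEAD sites: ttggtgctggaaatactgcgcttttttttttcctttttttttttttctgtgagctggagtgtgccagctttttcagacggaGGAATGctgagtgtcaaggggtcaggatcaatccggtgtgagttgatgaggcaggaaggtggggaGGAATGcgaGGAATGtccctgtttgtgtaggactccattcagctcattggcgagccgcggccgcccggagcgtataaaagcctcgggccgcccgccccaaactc
SP5, chr2:170715087-170715336, plus strand, with 3 TCF sites: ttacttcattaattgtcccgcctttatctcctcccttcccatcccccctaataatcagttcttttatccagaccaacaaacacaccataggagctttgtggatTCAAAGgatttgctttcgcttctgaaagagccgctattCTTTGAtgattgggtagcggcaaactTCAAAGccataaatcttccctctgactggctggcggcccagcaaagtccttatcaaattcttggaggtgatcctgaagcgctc

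The share of a list's promoters with the motif is given beside that of all 27305 promoters and that of the 8959 promoters of genes tested here. The heat shock element, searched as GAANNTTC or TTCNNGAA, stood in 8 of 25 heat shock genes (32%), beside 11.7% of all promoters and 8.62% of those tested. Of these 8, 4 were called higher, beside 16 of all 25. The antioxidant response element, TGACNNNGC, stood in 6 of 22 NRF2 genes (27.3%), beside 11% and 12.2%. Of these 6, 4 were called higher, beside 11 of all 22. Of 12 metallothionein and zinc genes with a promoter, 7 were called higher. The metal response element, TGCACNC or TGCGCNC, stood in 5 of the 12 (41.7%), beside 24.7% and 33.1%. These were MT1H, MT1X, MT2A, SLC30A1 and SLC39A6, which were called higher; the call of SLC39A6 was lost when any 1 array was left out (adjusted p = 0.0619 to 0.173), and under centring on all probes those of MT1X, MT2A, SLC30A1 and SLC39A6 were lost. The kappa B site stood in 6 of 13 NF-kB genes (46.2%), beside 9.57% and 11.6%. Of these 6, 4 were called higher, beside 11 of all 13. The CArG box stood in 2 of 22 immediate early genes (9.09%), beside 1.14% and 0.971%. Of these 2, 1 was called higher, EGR1, beside 15 of all 22. The TEAD site, GGAATG, stood in 2 of 10 YAP and TEAD targets (20%), beside 11.9% and 9.41%. Both were called higher, beside 4 of all 10. The TCF site, TCAAAG, stood in 2 of 15 Wnt genes (13.3%), beside 11.4% and 7.63%, in SP5 which fell and in DKK1 which rose. Of all 15, 4 were called higher and 9 lower. The ER stress element stood in 7 of 21 unfolded protein response genes (33.3%), beside 0.0806% and 0.156%. Of these 7, 2 were called higher, beside 7 of all 21. The AP-1 site, TGACTCA, stood in 0 of 16 ERK feedback genes, beside 4.16% and 2.53%, which says only that these letters are not in these windows. Both strands were searched for each motif, and overlap between different motifs was not considered.

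The genes whose promoters are shown include 3 not yet described, and their lists differed. Of 14 YAP and TEAD targets 6 were higher and 2 lower, with a median log2 fold change of 0.09. Of 17 NF-kB genes 15 were higher and 0 lower by limma, with 8 higher under centring on all probes, 9 without the second untreated array and 10 without the first Y15 array. Of 30 immediate early genes 21 were higher and 1 lower. CCN2, a secreted matricellular target of YAP and TEAD, read 9.52 and 9.17 with Y15, against 6.73 and 6.98 in untreated cells (5.6-fold higher). TNFAIP3, the inhibitor of NF-kB known as A20, read 8.81 and 8.31, against 6.20 and 6.37 (4.85-fold higher). EGR1, an immediate early transcription factor, was 2.41-fold higher. The groups of all 3 genes were separate, as for 67.8% of all genes tested.

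Several genes for ligands of natural killer cell receptors were higher. RAET1L, a ligand of the receptor NKG2D on natural killer cells, read 8.80 and 8.97 with Y15, against 5.37 and 5.32 in untreated cells (11.7-fold higher); its paralogues are alike and may share the probe. MICB, another such ligand, read 7.82 and 8.05, against 6.84 and 6.70 (2.24-fold higher). HLA-E, which presents peptides to inhibitory receptors of the same cells, read 7.59 and 7.67, against 6.34 and 6.29 (2.49-fold higher). The list of 21 genes of MHC class I, antigen processing and these ligands also held CD55, which was among those higher. Of the 21 genes 8 were higher and 3 lower, with 1 lower without the second Y15 array. Under centring on all probes 4 were higher and 6 lower. Among 30 interferon-stimulated genes 6 were higher and 10 lower, which became 4 and 3 without the second untreated array, 2 and 10 without the first, and 6 and 4 under centring on detected probes. ISG20, an RNA exonuclease, read 9.47 and 9.70, against 8.29 and 8.24 (2.49-fold higher). IFITM3, a membrane protein that blocks virus entry and shares much sequence with IFITM2, read 8.90 and 9.12, against 10.08 and 9.89 (1.97-fold lower).

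Metabolic genes changed at single steps. SLC2A3, a high-affinity glucose transporter, read 12.16 and 12.17 with Y15, against 8.67 and 8.73 in untreated cells (11-fold higher, adjusted p = 9.51e-08); SLC2A14 is nearly identical and the 2 cannot be separated by these probes with certainty. ADM, adrenomedullin, a hypoxia target, read 9.56 and 9.40, against 7.16 and 7.24 (4.86-fold higher). PFKL, a phosphofructokinase of glycolysis, read 7.66 and 7.25, against 9.02 and 8.68 (2.63-fold lower). Of 35 hypoxia and glycolysis genes 8 were higher and 5 lower, and the lower calls numbered 1 to 3 when any 1 array was left out. Some enzymes of amino acid synthesis fell: CBS, of transsulphuration, read 8.70 and 8.87, against 10.74 and 10.60 (3.69-fold lower), and PHGDH, the first enzyme of serine synthesis, read 11.32 and 11.55, against 12.60 and 12.39 (2.09-fold lower). ASS1, argininosuccinate synthase, read 10.35 and 10.49, against 12.42 and 12.33 (3.88-fold lower), and its second probe fell by 1.84 on the log2 scale. In the list of ATF4 targets, which holds CBS but not ASS1, the stress factors DDIT3 (3.57-fold) and PPP1R15A (4.6-fold) were higher. Of its 34 genes 8 were higher (23.5%) and 8 lower (23.5%), beside 18.8% and 23.0% of all genes.

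Lipid, lysosome and detoxification genes were mixed. NPC1, which moves cholesterol out of lysosomes, read 10.56 and 10.47 with Y15, against 8.67 and 8.65 in untreated cells (3.61-fold higher, adjusted p = 1.25e-06). Of 46 lysosomal genes 10 were higher and 13 lower, and leaving out the second Y15 array gave 5 and 11, the first untreated array 4 and 8, and the second 5 and 14, while centring on detected probes gave 10 and 9. In the reported fit 21.7% of the lysosomal genes were higher and 28.3% lower, beside 18.8% and 23.0% of all genes. Among the lysosomal genes that were lower was GRN, progranulin, at 8.69 and 8.48, against 9.91 and 9.55 (2.2-fold lower). HMGCS1, an early enzyme of cholesterol synthesis, read 10.30 and 10.01, against 8.51 and 8.90 (2.73-fold higher), whereas the regulator SREBF1 read 8.46 and 8.26, against 9.56 and 9.41 (2.18-fold lower). ATG16L1, which places LC3 on autophagosomes, read 10.40 and 10.30, against 8.67 and 8.68 (3.18-fold higher). Of 32 autophagy genes 9 were higher and 4 lower; the lower count was 2 without the second untreated array, and there were 3 higher and 9 lower under centring on all probes. AHR, the aryl hydrocarbon receptor, read 7.48 and 7.47 with Y15, against 5.91 and 6.33 in untreated cells (2.56-fold higher). ALDH3A1, an aldehyde dehydrogenase and target of that receptor, read 7.14 and 7.10, against 5.80 and 5.68 (2.61-fold higher). Of 8 genes of this pathway 5 were higher and 1 lower, and 2 were higher without the first untreated array. Among 18 ABC transporters ABCC2, an export pump for conjugates, was 2.33-fold higher, and 8 were lower, a count that was 5 without the second untreated array and 1 under centring on detected probes.

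Housekeeping machinery moved by small amounts, and here the direction of a list depended on scaling or on single arrays. Of 39 proteasome subunits 16 were higher and 4 lower, against 1 and 5 under centring on all probes and 8 and 0 without the first untreated array; without the second Y15 array the counts were 9 and 4. PSMD12, a subunit of the regulatory particle, read 11.91 and 11.74, against 10.65 and 10.51 (2.36-fold higher). Of 65 oxidative phosphorylation subunits 18 were lower and 3 higher, against 7 lower and 8 higher under centring on detected probes, and 9 to 15 were lower when any 1 array was left out. NDUFS8, of complex I, read 10.86 and 11.14, against 12.05 and 12.25 (2.21-fold lower), and ATP5F1D, of ATP synthase, 11.90 and 11.47, against 12.92 and 12.73 (2.2-fold lower). Of 66 cytosolic ribosomal proteins 8 were higher and 4 lower, which ran from 0 and 6 under centring on all probes to 47 and 1 under centring on detected probes. Among 62 splicing factors 14 were higher and 11 lower, against 2 and 16 under centring on all probes, and 8 to 9 were higher without the second Y15 array or without either untreated array. In the reported fit 22.6% of the splicing factors were higher and 17.7% lower, beside 18.8% and 23.0% of all genes. CLK1, a kinase that phosphorylates splicing factors, read 7.54 and 7.40, against 5.67 and 6.06 (3.04-fold higher).

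Of 56 G2/M and mitotic genes 16 were lower and 6 higher (all genes, 23.0% lower and 18.8% higher), with a median log2 fold change of -0.24, and under the centrings on all and on detected probes the lower counts were 33 and 11 and the higher counts 0 and 10. CENPF, a kinetochore protein, read 8.09 and 8.19 with Y15, against 9.20 and 9.29 in untreated cells (2.15-fold lower). HMMR, a spindle protein that is also a hyaluronan receptor, read 8.80 and 8.75, against 9.61 and 10.03 (2.07-fold lower). RBL2, a member of the RB family, read 7.85 on each Y15 array, against 8.90 and 8.91 (2.08-fold lower). CDC25A, the phosphatase that opens S phase, read 9.81 and 10.06, against 8.58 and 8.46, and was higher by 1.42 on the log2 scale. Among 12 cyclin-dependent kinase inhibitors and RB family genes 4 were higher and 3 lower, turning to 1 and 4 under centring on all probes. In DNA replication and G1/S, 9 of 51 genes were higher and 4 lower, turning to 2 and 11 under centring on all probes, and 2 were lower without the first untreated array.

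**Figure D4:**
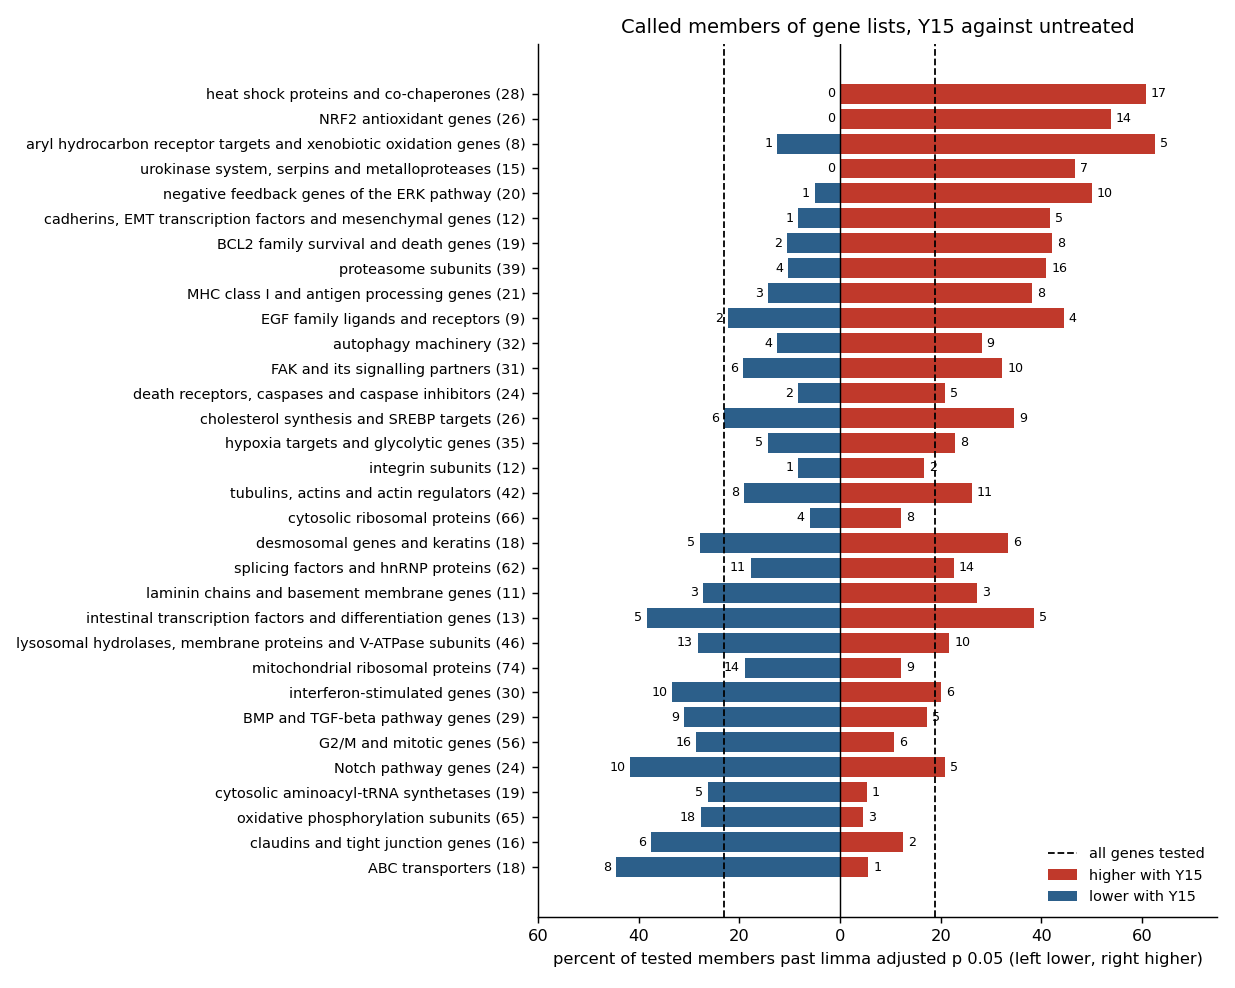
For 32 gene lists (number of genes tested in parentheses), the percent of members called higher with Y15 (red, right) and lower (blue, left) at limma adjusted p 0.05, with the counts at the bar ends. Dashed lines mark the same shares over all 10856 genes, 18.8% higher and 23.0% lower. The longer side of the bar turned to the other side under centring on all probes in 10 of the 32 lists. It did so under centring on detected probes in 6, and under neither in 16. Equal sides were not counted as a turn, so not all of the 16 kept a longer side. Among them, integrins, EGF family, aminoacyl-tRNA synthetases and ABC transporters had equal sides under a centring. The laminin and intestinal lists had equal sides in the reported fit. The list of MHC class I and antigen processing genes also holds CD55.

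Some genes crossed the detection limit. In all 130 genes were detected on both Y15 arrays and on neither untreated array, and 100 of them were called higher (all genes, 18.8%). Detection and the test use the same arrays, so a high share is partly built in. CGB5, a chorionic gonadotropin subunit, read 8.96 and 8.73 with Y15 (at least 16.5-fold higher); CGB1 and LHB, its near copies, were in the same group, and which copy the probes read is uncertain. SGMS2, a sphingomyelin synthase, read 7.83 and 7.65 (at least 7.67-fold higher). IL11, a cytokine of the IL-6 family, read 7.35 and 6.92 (at least 5.05-fold higher). STX11, a syntaxin of secretory cells, read 7.21 and 6.95 (at least 4.85-fold higher). HBA2, an alpha globin whose transcript is nearly that of HBA1, read 7.02 and 7.12 (at least 4.83-fold higher). In the other direction 262 genes were detected on both untreated arrays and on neither Y15 array. Of these, 141 were called lower (all genes, 23.0%), a share partly built in for the same reason. Among them were KISS1 and DACT2, an inhibitor of Wnt and Nodal signals (at least 2.72-fold lower). The dim array weighs on that second count: of genes detected on both untreated arrays, 402 were undetected only on the second Y15 array and 81 only on the first. Of the 402, 147 were called lower, with a median log2 fold change of -0.33, and of the 81, 14 were called lower, with a median of -0.14. Over all genes 23.0% were called lower, with a median of -0.03. Both sets were picked by a low reading on an array that enters the test, so lower values are partly built in. The part of the dim array in these losses was not tested.

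Among the 336 genes of mean log2 intensity 12 and over, 39 were called higher and 48 lower. This was 25.9% called in either direction, beside 41.8% of all genes. EIF1, a translation initiation factor, read 13.47 and 13.43 with Y15, against 12.34 and 12.36 in untreated cells (2.15-fold higher). EIF4A2, an initiation helicase, was 1.91-fold higher and ANXA2, a membrane-binding annexin, 1.86-fold higher. ASPSCR1, a tether of glucose transporter vesicles, read 12.55 and 12.17, against 13.86 and 13.84 (2.79-fold lower), and its second probe fell by 1.74 on the log2 scale.

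The Y15 arrays disagreed for a limited set of genes. They lay more than 1 log2 unit apart for 64 genes, while the untreated arrays did so for 11. BLZF1, a Golgi protein, showed the widest gap, at 6.56 and 5.0 with Y15, against 5.78 and 5.52 in untreated cells, and did not pass (adjusted p = 0.802). SPON2 read 7.11 and 5.63, against 6.05 and 5.91 (adjusted p = 0.396). GSDMA, a gasdermin, ran the other way, at 5.85 and 7.17, against 6.07 and 6.31 (adjusted p = 0.448). For these genes the groups overlapped, and the mean of the Y15 arrays describes neither array. Without the first Y15 array BLZF1 was lower (log2 fold change -0.65, adjusted p = 0.0224), and without the second it was higher (0.91, adjusted p = 0.00382). SPON2 was higher without the second Y15 array (1.12) and GSDMA without the first (0.98), and both then passed the test. ANO9 read 6.77 and 5.40, against 7.35 and 7.03, and its call (adjusted p = 0.0176) was lost without the second Y15 array (adjusted p = 0.121) and without the first untreated array (0.119), as well as with no detection filter and with a filter of detection p under 0.01 on all 8 arrays.

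The labelled epithelial line and markers of other cell types were checked by detection. Of 14 epithelial and colon markers on the array 9 and 8 were detected on the Y15 arrays and 9 and 9 on the untreated arrays, among them EPCAM, KRT19 and CDH1, and CDH17 was undetected on all 4. Their summed level was 19357 and 17607 with Y15 and 21823 and 18026 in untreated cells, as linear normalized intensity. Leukocyte markers were detected for 3 and 3 of 17 with Y15 and 4 and 5 in untreated cells. CD14 and CD68 were detected on all 4 arrays, and CD4 and LAPTM5 on both untreated arrays only. MS4A1 was detected on the first Y15 array only, and LYZ on the second array of each group. PTPRC and CD3E were among those undetected. The summed level of the leukocyte markers was 958.5 and 868.7 with Y15, against 734.6 and 723.2. CD68, which epithelial cells also express in lysosomes, was 3.47-fold higher. Fibroblast markers were detected for 4 and 3 of 13, against 2 and 4, with sums of 402.0 and 413.9, against 422.7 and 433.9. Endothelial markers were detected for 4 and 4 of 10 in both groups, with sums of 318.7 and 360.4, against 313.9 and 315.2. Erythroid markers were detected for 5 and 4 of 12, against 4 and 4, with sums of 649.8 and 691.7, against 892.3 and 953.8, in which HBA2 was higher and HBQ1, theta globin, 5.31-fold lower. The part of these genes in the results above was not tested.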

How the data were processed

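The deposited tables hold, per the file headers, an intensity and a detection p-value for each of 24526 probes on 8 Illumina arrays, and per the submitters' processing notes GenomeStudio was used; its version is not given in the sources used here. Per the labels, 250 to 500 ng of RNA was used per array. A second deposited table holds log2 values; they equal the quantile-normalized log2 intensities without background correction to within 4.99991e-09, a match computed here, and their direction and scale follow from it.

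The deposited intensity values were background-corrected with the detection p-values (limma nec, offset 16), quantile-normalized and taken to log2. Fold changes of dim genes are understated by the offset. Probes detected at p under 0.05 on 2 or more of 8 arrays were kept (14631), and the brightest probe stood for a gene. Of all probes 21834 carried 1 gene symbol and 2692 none. Means of the 4 groups were estimated over the 8 arrays by lmFit, moderated by eBayes (limma 3.58.1, R 4.3.3; python 3.11.15), and p-values were adjusted by Benjamini-Hochberg over 10856 genes. An "at least" fold sets the detected group's mean against, per undetected array, the higher of the lowest detected signal and the gene's own. The fit was tested on simulated data.

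Genes were named by a rule: FAK partners, the 30 largest rises and falls, up to 5 members of smallest p per list, the extremes among bright, newly detected and lost genes, and the 10 widest gaps between Y15 arrays. EGR1, MUC13, PHGDH, TJP1, TUBB2B, MT1X, MT2A, SLC39A6, EPCAM, KRT19 and CDH17 lie outside the rule and were chosen after their values were seen. The members and the 50 lists were chosen with earlier results of these data known. Alternatives changed the background correction, normalization, filter, probe summary, arrays in the fit, weights and replicate block, and left out each array.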

Additional observations from a re-analysis of the deposited data

How the results depend on the processing

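The counts of 2040 genes higher and 2498 lower stayed within 1.5 times under the other settings tried, with these exceptions. Centring arrays on the median of all probes gave 501 higher, and centring on probes detected on all 8 arrays, chosen after seeing the data, gave 1548 lower. The share of called genes that were higher was 45.0% in the reported fit, 12.7% and 64.9% under those centrings; the cause was not tested. No gene was called in opposite directions by the reported fit and any alternative that gave 1 value per gene. The fit of all probes was not compared in this way. Of the 1138 other kept probes of called genes, 81.5% changed in the direction of the probe used. Leaving out 1 array gave 1481 to 2043 higher and 1981 to 2349 lower. With the replicate number as a block, 2204 were higher and 2647 lower; the groups share only a number, and the correlation of same-numbered deviations between Y15 and untreated arrays was 0.27 over 10856 genes. Array weights could not separate arrays within a group of 2.

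Some log2 fold changes of genes not called in the reported fit changed sign, and the cause was not tested. Under centring on all probes these were BCAR1 (-0.48), CDH1 (-0.051), EPCAM (-0.50), GSDMA (-0.12), SRC (-0.17) and CDH17 (0.15). Called higher in the reported fit, FERMT1 (-0.0082) and SLC39A6 (-0.13) did so too and lost their calls. Under centring on detected probes CDH17 (0.68), PTK2 (0.031) and VCL (0.21) changed sign, and with the mean of probes PTK2 (0.22), PTK2B (-0.14) and VCL (0.21). Leaving out 1 array gave BCAR1 -0.22 to 0.25, BLZF1 -0.65 to 0.91, EPCAM -0.11 to 0.15, GSDMA -0.34 to 0.98, PTK2 -0.24 to 0.027, PTK2B -0.15 to 0.67 and SPON2 -0.36 to 1.12. For KRT19 it gave -0.0096 to 0.27.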
